A study of Mus musculus with 4 samples.

Results

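The genes described here encode the receptors for GABA, glycine and glutamate. They were chosen by gene symbol: every gene whose symbol names a subunit of a GABA-A, GABA-B, glycine, AMPA, kainate, NMDA or delta receptor, or a metabotropic glutamate receptor, and that had a probe set assigned to it alone. This gave 46 of the 22180 genes measured. A further 6 genes of the same kinds in the RefSeq table, from the GABA-A, NMDA, delta and metabotropic families, were not analysed here. They were measured in 4 primary tumours on 1-colour Affymetrix arrays, 1 array a tumour, and the 4 tumours form 1 group. All carry mutant Alk (the mutation is not named), the TH-MYCN transgene and a Stat6-/- genotype on a C57BL/6 by 129Sv/J background. In this model a tyrosine hydroxylase promoter drives MYCN, so the oncogene is active in cells of the catecholamine lineage, where neuroblastoma arises. Stat6 encodes a transcription factor of interleukin signalling. No tumour with intact Stat6, without the transgene or without mutant Alk was analysed here, so no conditions can be contrasted and no p-value is given. Age, sex and whether each tumour came from its own animal were not stated, and the spread between tumours may in part be technical.

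GABA and glycine are the main inhibitory transmitters of the adult central nervous system and glutamate is the main excitatory one. GABA-A, rho and glycine receptors are chloride channels built from subunits of the same superfamily, while AMPA, kainate and NMDA receptors are cation channels of another. GABA-B and metabotropic glutamate receptors act through G proteins, and GABA-B works as an obligate pair of unlike subunits. Sympathetic neurons use noradrenaline and acetylcholine at their main synapses, but they and their tumours also carry receptors for these amino acids.

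Values are the deposited RMA values, read as log2 units. A gene was said to be above the floor when the average of its 4 values was greater than 6.17. That floor is the 95th percentile of the same average among 1394 olfactory and vomeronasal receptor genes. A gene under the floor is undetermined, not shown to be absent. Levels depend on each probe set, so levels of different genes are set against the floor and not against each other. In bulk tumours, fewer cells of a type and less RNA per cell cannot be told apart.

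Of the 46 receptor genes, 8 (17.4%) lay above the floor, against 40.5% of all genes and 42.9% of all genes without the olfactory and vomeronasal receptors. They were Gabbr1 and Gabbr2 of the GABA-B receptor, Glrb of the glycine receptor, Gria2 and Gria4 of the AMPA receptor, Grik2 and Grik5 of the kainate receptor, and Grid1, a delta receptor subunit. None of 13 GABA-A subunits, 3 rho subunits, 6 NMDA subunits or 7 metabotropic glutamate receptors did. A stricter floor at the 99th percentile of the same receptors, 7.14, left 4 of the 46, Gabbr1, Gria2, Gria4 and Grik5. With a floor set on each array separately, 7 of the 46 genes passed in all 4 tumours, against 34.2% of all genes. The per-array floors left Grid1 and Gria1 above in 2 tumours each, and the other 37 genes in none.

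**Figure D1:**
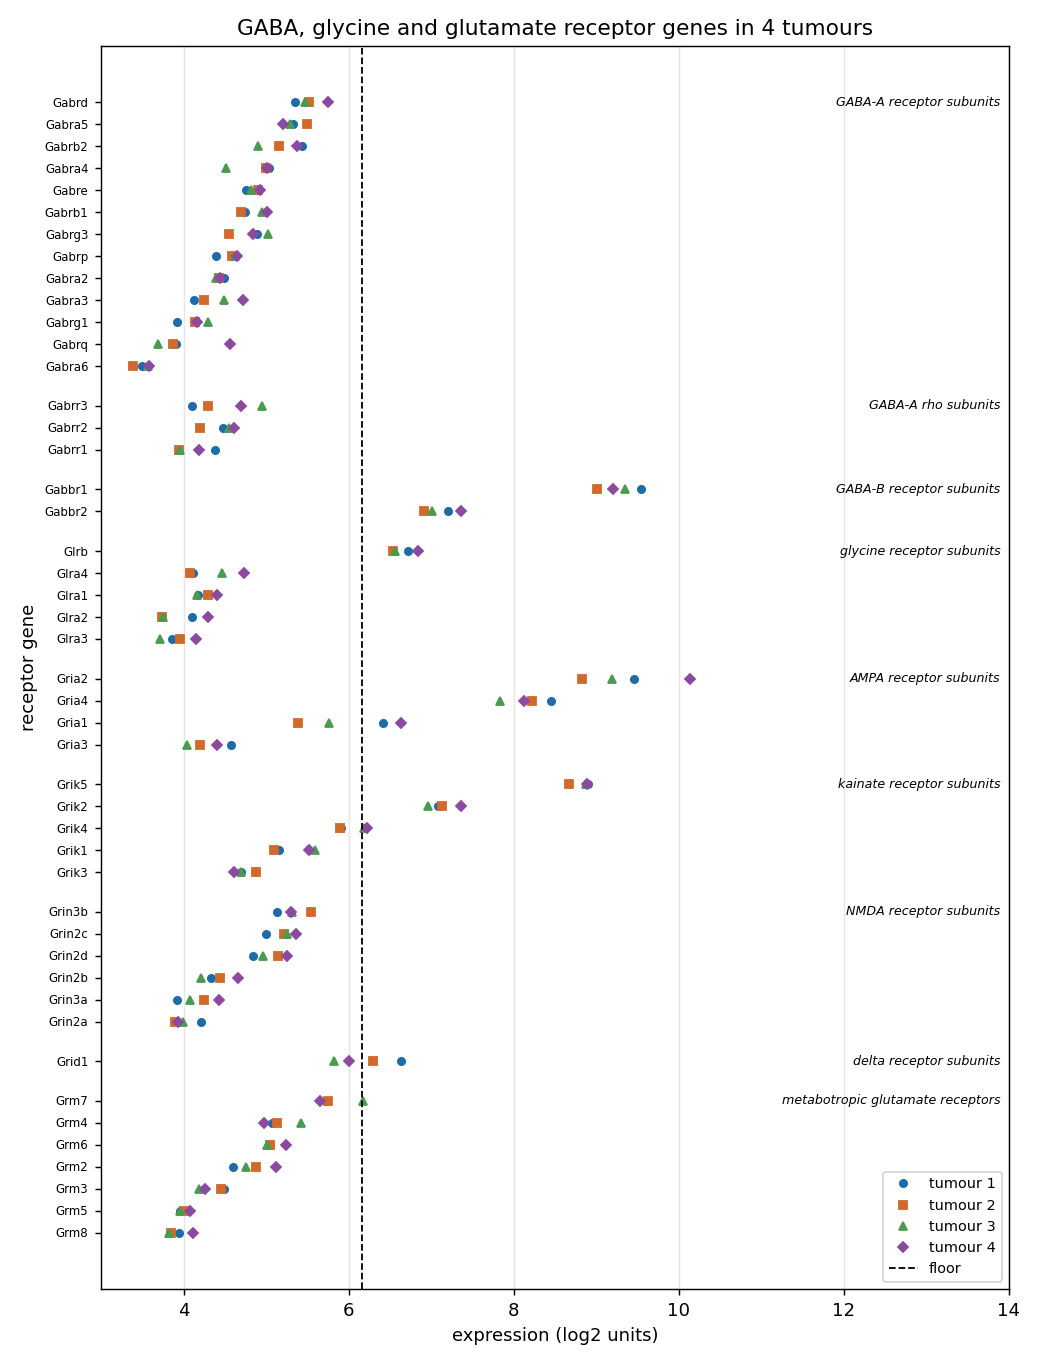
Expression (log2 units, horizontal axis) of each of the 46 receptor genes, grouped by family; each symbol is 1 tumour and the dashed line is the floor of 6.17. The 8 genes with a mean to the right of the line are Gabbr1, Gabbr2, Glrb, Gria2, Gria4, Grik2, Grik5 and Grid1, and no GABA-A, rho, NMDA or metabotropic glutamate gene has a mean to its right.

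The promoters of 4 of these genes are shown first. Those of Gria2, Glrb and Gabbr2 belong to the 3 genes above the floor whose tumours fell in the same order in the deposited values, and that of Gabra6 is an example from the genes under the floor, picked as the one farthest under it. Each window runs from 250 bases before to 50 after the transcript start in RefSeq (GRCm38.p6), is written 5′ to 3′ on the strand of the gene, and has every CG dinucleotide in capitals. The windows lie on the minus strand at chr3:80802786-80803085 (Gria2), chr3:80913611-80913910 (Glrb), chr4:46991665-46991964 (Gabbr2) and chr11:42321023-42321322 (Gabra6).
Gria2: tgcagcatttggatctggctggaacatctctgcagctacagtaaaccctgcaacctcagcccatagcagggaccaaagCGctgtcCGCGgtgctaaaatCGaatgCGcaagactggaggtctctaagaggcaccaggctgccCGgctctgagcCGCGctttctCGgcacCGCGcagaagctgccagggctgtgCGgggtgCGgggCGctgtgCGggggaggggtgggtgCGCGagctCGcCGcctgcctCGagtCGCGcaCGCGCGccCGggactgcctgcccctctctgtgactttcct
Glrb: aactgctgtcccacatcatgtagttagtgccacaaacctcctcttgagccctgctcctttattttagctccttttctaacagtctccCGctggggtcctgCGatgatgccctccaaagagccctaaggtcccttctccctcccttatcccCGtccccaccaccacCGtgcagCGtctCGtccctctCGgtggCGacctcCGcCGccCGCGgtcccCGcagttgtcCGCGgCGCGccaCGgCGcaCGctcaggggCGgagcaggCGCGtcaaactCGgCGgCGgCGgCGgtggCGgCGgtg
Gabbr2: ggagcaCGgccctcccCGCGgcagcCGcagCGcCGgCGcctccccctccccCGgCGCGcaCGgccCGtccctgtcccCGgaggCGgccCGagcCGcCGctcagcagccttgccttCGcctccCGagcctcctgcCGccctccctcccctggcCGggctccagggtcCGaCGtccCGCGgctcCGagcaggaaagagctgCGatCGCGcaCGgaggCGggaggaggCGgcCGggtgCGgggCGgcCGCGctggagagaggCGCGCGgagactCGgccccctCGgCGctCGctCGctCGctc
Gabra6: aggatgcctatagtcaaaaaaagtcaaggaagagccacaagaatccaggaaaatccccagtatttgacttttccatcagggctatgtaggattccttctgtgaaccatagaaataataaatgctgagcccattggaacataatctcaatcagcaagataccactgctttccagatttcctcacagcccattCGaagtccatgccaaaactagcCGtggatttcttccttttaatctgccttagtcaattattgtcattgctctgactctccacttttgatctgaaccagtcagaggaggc
The Gria2 window holds 26 CG dinucleotides, that of Glrb 30 and that of Gabbr2 46, while that of Gabra6 holds 2.

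Genes above the floor had the higher median CG count, with wide overlap. A RefSeq promoter was found for 35 of the 46 genes, and for genes with several starts the window richest in CG was taken. The 7 genes above the floor with a promoter had a median of 26 CG (10 to 46). The 28 under the floor with a promoter had a median of 11.5 (0 to 50). Over all measured genes with a promoter the medians were 23 above the floor and 6 under it, so the same direction held for genes at large. Grik3, a kainate subunit, had the richest window of the 35 genes with a promoter, at 50 CG, yet its mean was 4.72, under the floor. Grik5 had the poorest window among the genes above the floor, with 10 CG.

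**Figure D2:**
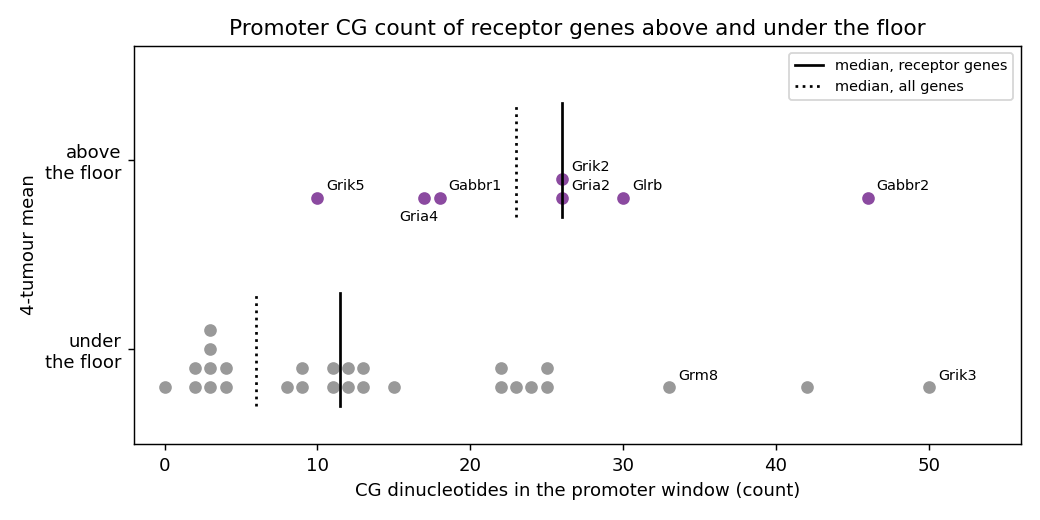
Count of CG dinucleotides in the promoter window (horizontal axis) for the 35 receptor genes with a RefSeq promoter, in 2 rows by whether the 4-tumour mean lay above or under the floor; each point is 1 gene, genes of equal count are stacked, and lines mark the medians of the receptor genes (solid) and of all genes (dotted). The 7 genes above the floor have 10 to 46 CG, and Grik3 (50 CG) and Grm8 (33 CG) show that a CG-rich window also occurs under the floor.

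The windows were searched on both strands for 3 short motifs. CACGTG, the E-box bound by MYC and MAX, was in 0 of the 35 receptor promoters, against 7.39% of the promoters of all 27025 genes in the RefSeq table. GGGCGG, the GC box bound by SP1, was in 20 of 35 (57.1%), against 37.3% of all. Among the genes above the floor it was in 4 of 7 (57.1%), those of Gabbr1, Gabbr2, Glrb and Grik5, against 69.4% of all genes above the floor. Among those under the floor it was in 16 of 28 (57.1%), against 33.3% of all genes under it. TGACGTCA, the cyclic AMP response element, was in 0 of 35, against 1.88% of all. With no match of the E-box or the cyclic AMP element, no matches of different motifs overlapped. A match in a window of this length is a description of its letters.

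Both measured GABA-B subunits were above the floor in each tumour. Gabbr1 encodes the subunit that binds GABA. It measured 9.55, 9.01, 9.34 and 9.20 in tumours 1 to 4, with a mean of 9.27 ± 0.23 (SD, n = 4). Gabbr2 encodes the subunit that couples to G proteins and carries its partner to the cell surface. It measured 7.20, 6.91, 7.01 and 7.36, with a mean of 7.12 ± 0.20 (SD, n = 4). Both were lowest in tumour 2, while Gabbr1 was highest in tumour 1 and Gabbr2 in tumour 4, and neither reached a range of 1 log2 unit (2-fold). Kctd12, an auxiliary subunit of GABA-B receptors that speeds their desensitization, measured 8.44, 7.79, 8.90 and 7.95, with a mean of 8.27 ± 0.50 (SD, n = 4). Its range of 1.11 was wider than that of either receptor subunit, and its highest value was in tumour 3. Its relatives Kctd8, Kctd12b and Kctd16, named after their values were seen, had means of 4.82, 4.17 and 4.46, all under the floor.

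The chloride channel subunits were under the floor with 1 exception. Glrb, the beta subunit that ties glycine receptors to the scaffold protein gephyrin, measured 6.71, 6.54, 6.56 and 6.85 in tumours 1 to 4, with a mean of 6.67 ± 0.14 (SD, n = 4). The 4 alpha subunits, Glra1 to Glra4, which bind glycine, had means from 3.92 (Glra3) to 4.35 (Glra4). Their values stayed under the floor in every tumour. The 13 GABA-A subunits had means from 3.51 (Gabra6) to 5.52 (Gabrd), and no value of any of them passed the floor in any tumour. Those measured were the alpha subunits Gabra2 to Gabra6, which shape the benzodiazepine site, the beta subunits Gabrb1 and Gabrb2, which with alpha subunits form the GABA site, and Gabrg1, Gabrg3, Gabrd, Gabre, Gabrp and Gabrq. The rho subunits, which form GABA channels best known from the retina, had means of 4.51 (Gabrr3), 4.46 (Gabrr2) and 4.11 (Gabrr1).

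AMPA receptors carry fast excitation, and 2 of their subunits, Gria2 and Gria1, had the widest ranges of the 46 receptor genes. Gria2, whose edited product makes the channel nearly impermeable to calcium, measured 9.46, 8.83, 9.19 and 10.14 in tumours 1 to 4, with a mean of 9.40 ± 0.55 (SD, n = 4). Tumour 4 stood highest and tumour 2 lowest, 1.31 log2 units (2.48-fold) apart. Of the 8 genes above the floor, only Gria2 had a range of at least 1 log2 unit, a range that 4.26% of all genes above the floor reached. A range of 1.5-fold was reached by 3 of the 8 (Gria2, Gria4 and Grid1), against 24.2% of all genes above the floor. Gria4 measured 8.45, 8.22, 7.83 and 8.13, with a mean of 8.16 ± 0.26 (SD, n = 4), and was highest in tumour 1 and lowest in tumour 3. Its range of 0.62 fell short of 1.5-fold without tumour 1 (0.39), without tumour 3 (0.32) and after a further quantile normalization (0.50), and that of Grid1 without tumour 1 (0.47). Gria1 measured 6.42, 5.39, 5.76 and 6.63, with a mean of 6.05 ± 0.57 (SD, n = 4), just under the floor, so its values above the floor were those of tumours 1 and 4. Its range of 1.24 log2 units (2.36-fold) was the only other range of at least 1 among the 46 genes. Gria3, on the X chromosome, had a mean of 4.30.

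The range of Gria2 rested on single tumours. Without tumour 4 it was 0.64 and without tumour 2 it was 0.94, both short of 1 log2 unit. It was 1.44 after a further quantile normalization and 1.21 with arrays centred on their medians. The arrays were offset from each other, since the median deviation of all genes above the floor from their own means was 0.12, 0.04, -0.09 and -0.08 in tumours 1 to 4. With this offset removed, Gria2 deviated from its own mean by -0.07, -0.62, -0.13 and 0.81. Tumour 4 also differed from the others in sex-linked transcripts: Xist, the RNA of the inactive X, measured 10.13 there and 3.89 to 3.95 in tumours 1 to 3, and the Y-linked Eif2s3y measured 3.90 there and 7.47 to 7.89 in the others. Gria2 lies on chromosome 3. Whether the height of Gria2 in tumour 4 goes with sex cannot be told apart from the tumour itself.

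Kainate receptors, slower glutamate-gated channels, had 2 of 5 subunits above the floor. Grik5, a high-affinity subunit that forms channels only with other kainate subunits, measured 8.90, 8.67, 8.88 and 8.89 in tumours 1 to 4, with a mean of 8.83 ± 0.11 (SD, n = 4). Its range was 0.24, with tumour 2 below 3 nearly equal tumours. It was 0.027 without tumour 2 and 0.36 after a further quantile normalization. Grik2, a subunit that can form channels alone or with Grik5, measured 7.09, 7.13, 6.96 and 7.36, with a mean of 7.13 ± 0.17 (SD, n = 4). Grik4, the other high-affinity subunit, measured 5.90, 5.89, 6.19 and 6.22, a mean of 6.05 ± 0.18 (SD, n = 4), just under the floor. Grik1 and Grik3 had means of 5.34 and 4.72. Neto2, an auxiliary subunit of kainate receptors, was above the floor at 9.06, 9.03, 8.49 and 8.84, and its relative Neto1 was not, with a mean of 3.91. Both were named after their values were seen.

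The 6 NMDA receptor subunits measured were under the floor in every tumour. Grin1, which encodes another NMDA subunit, was not among them. The glutamate-binding subunits Grin2a to Grin2d and the glycine-binding subunits Grin3a and Grin3b had means from 4.01 (Grin2a) to 5.32 (Grin3b). Grid1, an orphan receptor that links presynaptic neurexins and cerebellins to the postsynaptic membrane, measured 6.63, 6.29, 5.82 and 6.00, with a mean of 6.19 ± 0.35 (SD, n = 4). It passed the floor by 0.021 log2 units, its values in tumours 3 and 4 were under it, and it was under the floor after a further quantile normalization, without tumour 1, without tumour 2, and with a floor from taste receptor, keratin-associated and defensin genes. The metabotropic receptors Grm2 to Grm8 had means from 3.93 (Grm8) to 5.83 (Grm7). Grm7, a presynaptic inhibitory receptor, measured 5.73, 5.75, 6.18 and 5.65, a mean of 5.83 ± 0.24 (SD, n = 4), and with Grik4 and Gria1 was among the 3 genes nearest under the floor. The 3 nearest above it were Grid1, Glrb and Gabbr2. For 5 genes, Grin2b, Grin2c, Grin2d, Grm6 and Grm7, the array held 2 probe sets, and both were under the floor for each.

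The receptor genes above the floor did not share 1 order of tumours. Tumour 1 held the highest value of 4 of them (Gabbr1, Gria4, Grid1 and Grik5), and tumour 1 was highest for 46.6% of all genes above the floor. Tumour 4 held the highest value of the other 4 (Gabbr2, Glrb, Gria2 and Grik2), against 15.5% of all. None was highest in tumour 2 or 3 (26.9% and 11% of all). The lowest value was in tumour 2 for 5 genes (17.8% of all) and in tumour 3 for 3 genes (36.1% of all). None was lowest in tumour 1 or 4 (7.52% and 38.6% of all). For Gabbr2, Glrb and Gria2 the order from high to low was tumour 4, 1, 3 and 2, which 3.24% of all genes above the floor had. Gria1, under the floor, had that order too, and the pattern was noticed in the data. For Glrb, tumours 2 and 3 were 6.54 and 6.56, so that part of the order rests on a small difference. With arrays centred on their medians Glrb measured 6.78, 6.57, 6.53 and 6.78, highest in tumour 1 by a small difference and lowest in tumour 3, so it had neither that order nor a peak in tumour 4. The peak of Grik5 in tumour 1 also rests on a small difference, 8.90 against 8.89 in tumour 4. After a further quantile normalization Grik5 was highest in tumour 4 (8.98, against 8.83 in tumour 1). With that normalization, 5 of 7 genes peaked in tumour 4 and 2 in tumour 1, and with arrays centred on their medians, 3 of 8 and 5 of 8.

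With the offset of all genes above the floor removed, the median deviation of the 8 genes was -0.05, -0.19, -0.06 and 0.20 in tumours 1 to 4. In tumour 4, 7 of the 8 deviated upward by more than that offset. Of all genes above the floor 50% do so, because the offset is their median. Among the 7, Gabbr1 (0.008) and Gria4 (0.05) lay close to the offset, and the remaining gene of the 8, Grid1, deviated downward (-0.10). In tumours 1 to 3 the number deviating upward was 3, 2 and 2. The 12 measured sympathetic markers had medians of -0.07, -0.22, 0.08 and 0.24 in tumours 1 to 4. All 12 were above the floor, and their mean level was 9.76, 9.59, 9.73 and 9.83. Their part in the deviation of the receptor genes was not tested. Macrophage markers (8 of 10 above the floor) had their lowest median in tumour 3 (-0.46) and their highest in tumour 4 (0.30). Fibroblast markers (6 of 8) were highest in tumour 1 (0.51) and lowest in tumour 4 (-0.36). The part of macrophages and fibroblasts in the deviation of the receptor genes was not tested either.

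**Figure D3:**
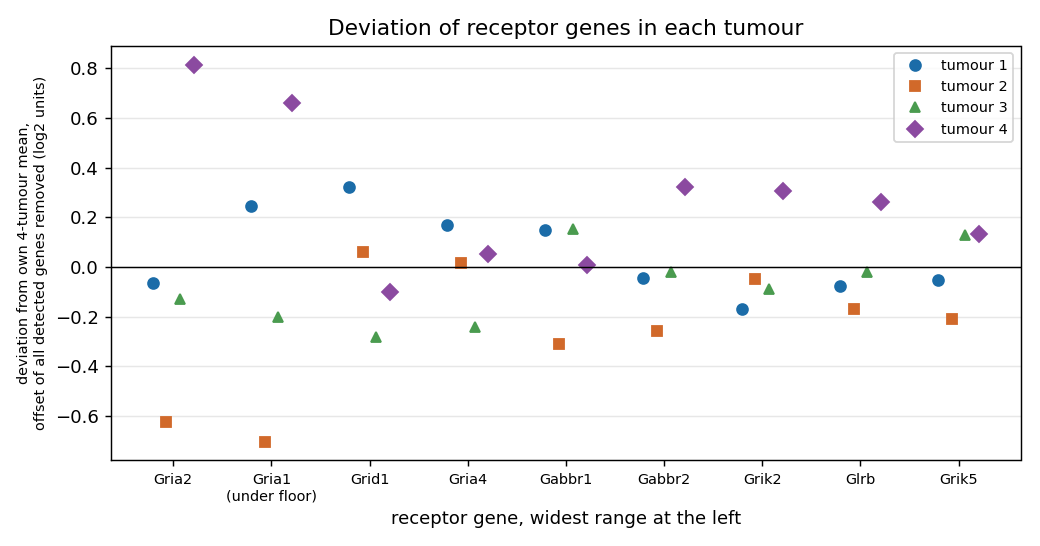
Deviation of each gene from its own 4-tumour mean with the offset of all genes above the floor removed (log2 units, vertical axis), for the 8 receptor genes above the floor and for Gria1; each symbol is 1 tumour. Gria2 spreads from -0.62 in tumour 2 to 0.81 in tumour 4, and tumour 4 is also the highest symbol for Gria1, Gabbr2, Grik2, Glrb and Grik5, for Grik5 nearly level with tumour 3 (0.13 in both).

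Genes at large peaked in different tumours above and under the floor. Of the 38 receptor genes under the floor, 22 (57.9%) had their highest value in tumour 4 and 7 (18.4%) in tumour 1, against 44.2% and 15.2% of all genes under the floor. Above the floor, tumour 1 was the most frequent peak of genes at large, while the receptor genes peaked in tumours 1 and 4 alike. Tumour 4 was thus a common peak among all genes under the floor, but only 15.5% of all genes above the floor peaked there. All 6 receptor genes of the X chromosome (Gabra3, Gabre, Gabrq, Glra2, Glra4 and Gria3) were under the floor, with means from 3.97 to 4.85, and 5 of them were highest in tumour 4. The floors set on each array separately rose from tumour 1 to tumour 4, at 5.91, 6.14, 6.37 and 6.43. Whether these peaks go with sex was not tested.

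Receptor genes that lie side by side in the genome formed 7 groups of neighbours, of which all but that of Gria2 and Glrb lay wholly under the floor, as did 38 of the 46 receptor genes. Gria2 and Glrb are adjacent on chromosome 3, with no protein-coding gene between them in RefSeq, and both were above the floor. The 4 measured genes of the chromosome 5 cluster (Gabrg1, Gabra2, Gabra4 and Gabrb1), the 3 of the X cluster (Gabre, Gabra3 and Gabrq) and the pairs Gabrg3 and Gabra5 on chromosome 7, Gabra6 and Gabrb2 on chromosome 11, Glra1 and Gria1 also on chromosome 11, and Gabrr1 and Gabrr2 on chromosome 4 held no gene above the floor. Gria1 passed the floor, and Glra1 did not, without tumour 2, without tumour 3 and with a 90th percentile floor. Neighbours here were separated by at most 1 protein-coding gene.

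Many genes that make, move or anchor these receptors and transmitters were above the floor. Of 88 measured pathway genes in 5 lists, 57 (64.8%) passed, against 40.5% of all genes. Of the 57, 4 had a range of at least 1 log2 unit, a range that 4.26% of all genes above the floor reached. Partners of glutamate receptors had 28 of 38 above the floor and partners of inhibitory receptors 12 of 15. Many of these partners have other tasks in the cell. The lists and their sizes were chosen by hand, so the shares describe them alone. Among gene classes chosen by symbol, voltage-gated channels had 18 of 44 above the floor, nicotinic receptors 4 of 16 and adrenergic, dopamine and serotonin receptors 4 of 20, and these differences from the 8 of 46 were not tested.

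**Figure D4:**
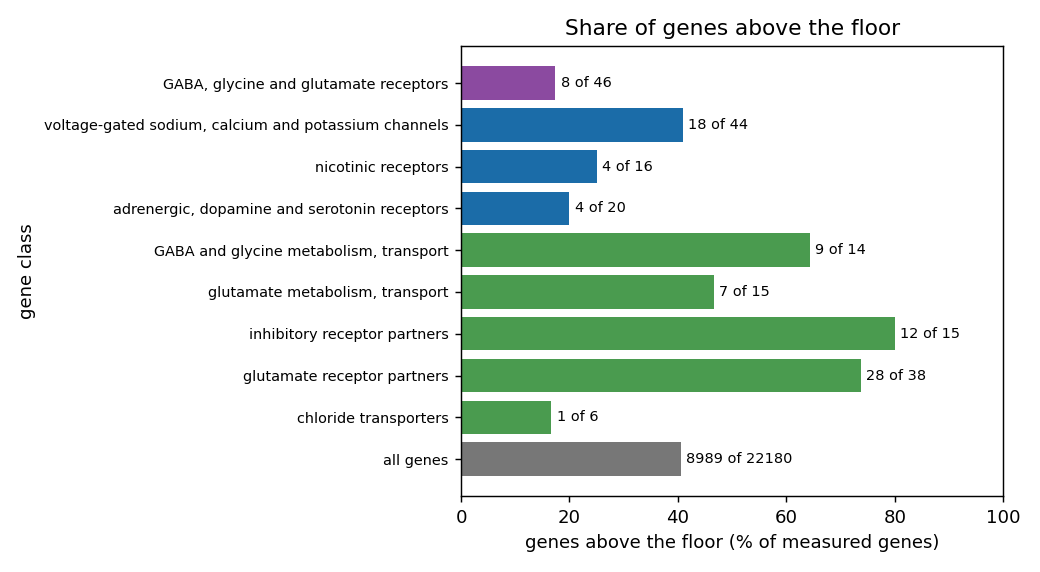
Share of measured genes with a 4-tumour mean above the floor (percent, horizontal axis, bars start at 0) for the receptor genes, 3 other classes chosen by symbol, the 5 pathway lists and all genes, with counts beside each bar. The receptor genes stand at 8 of 46, and the lists of inhibitory and glutamate receptor partners at 12 of 15 and 28 of 38.

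Among auxiliary subunits of AMPA receptors above the floor, 2 had a range of at least 1 log2 unit. Of all genes above the floor, 4.26% had such a range. Cacng5, a member of the family that carries AMPA receptors to the membrane, measured 8.24, 7.35, 6.91 and 7.03, with a mean of 7.38 ± 0.60 (SD, n = 4), highest in tumour 1. Cacng3, another, measured 8.77, 9.41, 8.21 and 8.64, with a mean of 8.76 ± 0.50 (SD, n = 4), highest in tumour 2. Neither shared the order of Gria2, whose highest value was in tumour 4 and lowest in tumour 2. The other 4 family members in the list, Cacng2, Cacng4, Cacng7 and Cacng8, named after their values were seen, were also above the floor, with means of 6.46, 9.31, 10.16 and 6.76. Cnih2, an unrelated auxiliary subunit named likewise, had a mean of 8.79 ± 0.13 (SD, n = 4). Adarb1, the enzyme that edits Gria2 transcripts at the pore, was nearly constant at 7.26, 7.27, 7.22 and 7.34 (7.27 ± 0.05, SD, n = 4).

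Among scaffolds, Dlg3, a membrane-associated guanylate kinase that binds NMDA receptors, had a mean of 7.03 ± 0.06 (SD, n = 4) and, after Adarb1, the narrowest range among the genes of its list above the floor. Homer2, which links metabotropic glutamate receptors to calcium stores, ran from 6.09 in tumour 4 to 7.01 in tumour 2. Nlgn3, an adhesion protein of both excitatory and inhibitory synapses, ran from 7.07 in tumour 2 to 7.87 in tumour 4. At inhibitory synapses, Shisa7, a GABA-A receptor auxiliary protein, ran from 6.78 in tumour 4 to 7.47 in tumour 1, and Zdhhc3, an enzyme that palmitoylates gamma subunits, from 7.84 to 8.47. Nlgn2, the adhesion protein of inhibitory synapses, ran from 7.98 in tumour 2 to 8.53 in tumour 3. Gabarap, a trafficking protein that also serves autophagy, had a mean of 11.15 ± 0.11 and Trak1, a mitochondrial transport adaptor, 8.25 ± 0.09 (SD, n = 4).

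Transmitter metabolism was represented in part. For GABA and glycine, 9 of 14 genes (64.3%) were above the floor, against 40.5% of all genes. Gad2, which makes GABA from glutamate, measured 6.42, 6.55, 7.06 and 7.06 (6.77 ± 0.34, SD, n = 4). Abat, which breaks GABA down, had a mean of 8.73 ± 0.17 and Aldh5a1, the next enzyme, ran from 6.07 in tumour 4 to 6.85 in tumour 2. Gad1, the other GABA-making enzyme, and Slc32a1, which loads GABA and glycine into vesicles, both named after their values were seen, had means of 5.24 and 5.20, under the floor. Of the glycine enzymes, Shmt2, of mitochondrial serine and glycine exchange, ran from 7.21 in tumour 4 to 8.47 in tumour 2, Gldc, of the glycine cleavage system, from 6.85 to 7.70, and Gcsh, its carrier protein, had a mean of 6.47 ± 0.13 (SD, n = 4).

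For glutamate, 7 of 15 genes (46.7%) were above the floor, near the 40.5% of all genes. Got1, a cytosolic aminotransferase, ran from 8.95 in tumour 4 to 9.87 in tumour 1, and Slc1a1, a neuronal glutamate transporter, from 6.80 in tumour 4 to 7.49 in tumour 1. Slc1a5, a glutamine carrier, was also highest in tumour 1 (6.83) and lowest in tumour 4 (5.92). Glul, glutamine synthetase, ran from 7.80 in tumour 3 to 8.38 in tumour 1. Slc1a4, a neutral amino acid carrier, had a mean of 8.13 ± 0.15 and Glud1, glutamate dehydrogenase, 8.43 ± 0.11 (SD, n = 4). The glial transporters Slc1a2 and Slc1a3, named after their values were seen, were under the floor at 4.95 and 4.02. Some chloride transporters set whether GABA and glycine currents run inward or outward. Of 6 measured, 1 (16.7%) was above the floor, against 40.5% of all genes. This was Slc12a2, which brings chloride in, at 7.52, 7.32, 6.78 and 6.88 (7.13 ± 0.35, SD, n = 4). Slc12a5, the neuronal chloride extruder, also named after its values were seen, had a mean of 5.11, under the floor. Slc12a7, of the same list and named likewise, had a mean of 6.08, just under the floor. It was above the floor of its own array in 1 tumour.

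Markers bear on which cells were present. Skeletal muscle, the tissue named in the labels, had 0 of 12 markers above the floor (means 3.63 to 5.86), and astrocytes and oligodendrocytes 0 of 8 (4.32 to 6.03). Schwann and satellite glia had 2 of 8, of which Fabp7 ran from 6.49 in tumour 3 to 9.54 in tumour 1 and Pmp22 from 7.24 to 7.90. Parasympathetic and sensory ganglion neurons had 1 of 8, Slc18a3 (6.51 to 7.49), and endothelium 2 of 8, Cdh5 (6.32 to 6.61) and Egfl7 (6.09 to 6.35). Which cells carried the receptor transcripts was not tested.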

How the data were processed

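Total RNA from 4 tumours was measured on Affymetrix arrays. The submitters' processing notes name RMA and Partek, with no versions or settings. The deposited values are taken as log2 from their range, 2.47 to 13.6, since the authors' labels give no log base. They were used as the authors normalized them. Probe sets were named from the platform annotation, which lists 25335 of 41345, of which 23521 have 1 gene, 1814 several and 0 none. Symbols were updated by Entrez identifier through the RefSeq table of GRCm38.p6, which matched 23328. For genes with several probe sets the one with the highest mean was kept, as the choice of receptor genes asks. The floor, ranges and counts were computed with Python 3.11.15, numpy 2.4.6 and pandas 2.3.3, and the counting was tested on simulated arrays. The simulated noise was smaller than the SD of every receptor gene above the floor. That test therefore checks the counting steps and not the range calls in these data. With 1 group no test was made. The array number limits the precision. Tumours are numbered in record order. Of any 2 arrays at most 0.215% of values were equal, so all 4 were kept.

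The genes and lists were chosen with earlier results of these data known. Named genes were all receptor genes above the floor, the 3 on each side nearest to it, those with a range of at least 1 log2 unit and the family extremes, plus the 4 widest and 2 narrowest genes above the floor of each pathway list and up to 2 of each marker list. Alternatives changed the floor, the genes behind it, the probe set rule, the normalization, the symbols and the range, and left out each tumour.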

Additional observations from a re-analysis of the deposited data

Results flagged for a closer look

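Of 47 named genes examined, 1 had a tumour far from the others. Grik5 measured 8.90, 8.67, 8.88 and 8.89 in tumours 1 to 4, and the gap between tumour 2 and the nearest of the others made up 0.888 of the whole range, above Dixon's 95% critical value for 4 samples. The value rests on the deposited scaling: the widest such gap was 0.583 of the range after a further quantile normalization and 0.471 with arrays centred on their medians, both under that critical value. About 1 in 20 such groups passes by chance, and the range itself was 0.24 log2 units.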

How the results depend on the processing

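The count of 8 receptor genes above the floor kept within 1.5 times (7 to 11) with a floor at the 90th percentile, a floor from taste receptor, keratin-associated and defensin genes, the mean of probe sets, both further normalizations and array symbols. It was 4 with a 99th percentile floor, 40 with the median of the olfactory and vomeronasal receptors as floor, and 46 with none, by the floor's own construction. Without single tumours it ran from 7 to 9. Pathway genes above the floor, 57, were 35, 87 and 88 under those same 3 floors, and 54 to 58 without single tumours. The most receptor genes peaking in 1 tumour, 4, was 21 with that median floor and 26 without a floor. Without single tumours it ran from 5 to 7, with 7 without tumour 4. Genes that peaked in the tumour left out must then peak in another, so such a rise can come by construction. Receptor genes with a range of at least 1 log2 unit, 1, became 2 with a 90th percentile floor, a median floor or none, where Gria1 joined Gria2, and 3 with a range of 1.5-fold, a range that 24.2% of all genes above the floor reached. Without single tumours it ran from 0 (without tumour 2 or 4) to 2 (without tumour 3). No paired analysis was possible because the 4 tumours form 1 group. No detection call or signal over background was used, so genes near the floor cannot be placed more firmly.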

Other observations

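Slc17a6, a vesicular glutamate transporter that loads glutamate for release, had the widest range of the 88 pathway genes, though its mean of 5.36 was under the floor. It measured 4.71, 4.72, 6.67 and 5.32 in tumours 1 to 4, so only tumour 3 passed 6.17. Cnih3, an auxiliary subunit of AMPA receptors, measured 5.93, 6.35, 5.26 and 5.11, and only tumour 2 passed 6.17. By the floors set on each array separately, Slc17a6 was above in 1 tumour and Cnih3 in 2. Both genes were chosen after their values were seen. Of the receptor genes under the floor, Gabrq on the X chromosome had its highest value in tumour 4, at 4.56, against 3.69 to 3.91 in tumours 1 to 3, and Gabrr3 ran from 4.10 in tumour 1 to 4.95 in tumour 3. The floors set on each array separately were highest in tumour 4 (6.43) and lowest in tumour 1 (5.91).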
